A study of Bos taurus with 8 samples.

Results

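The genes described here make, recycle or regulate the thiol antioxidants glutathione and thioredoxin, remove peroxide and superoxide, conjugate electrophiles, supply NADPH or bind iron and other metals. They were chosen by symbol, as every probe of the bovine expression array whose gene name was one of 49 members, and each gene was read from its brightest probe, the one with the highest mean over the 8 arrays. Of the 49 genes, 48 had a probe (123 probes in all), and 47 were tested among 12606 genes. GPX2 had no probe under this name. SOD3, the extracellular superoxide dismutase, had 2 probes that were well above background on 0 and 1 arrays, below the minimum of 2 arrays, so it has no value here.

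The RNA came from bovine mammary epithelial cells (BMECs), primary cells grown out from the mammary tissue of a lactating Holstein cow and used at the fifth passage. There were 3 arrays of cells with the EEF1D-1357 shRNA (genotype EEF1D knockdown), 3 arrays of cells with the EEF1D-1893 shRNA (also EEF1D knockdown) and 2 control arrays of cells without shRNA. An shRNA is a short hairpin RNA that lowers its target mRNA by RNA interference, and EEF1D encodes the delta subunit of the exchange factor that recharges translation elongation factor eEF1A. All groups share the tissue source, the passage and the labelling with Cy3. The labels name 1 cow and no non-targeting hairpin, so carrying an shRNA and losing EEF1D cannot be told apart. They do not say whether replicates were separate cultures, and the p-values below then cover array-to-array spread alone, which may be technical.

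NRF2, the product of NFE2L2, is a transcription factor that KEAP1 holds in the cytoplasm and hands over for degradation. When electrophiles or peroxides modify the cysteines of KEAP1, NRF2 accumulates in the nucleus and raises genes such as NQO1, HMOX1, GCLC, GCLM, TXNRD1 and SRXN1. Glutathione and thioredoxin then pass electrons from NADPH to the peroxidases and peroxiredoxins, and in the lactating gland this system works beside a high rate of oxidative metabolism and of disulphide formation in secreted proteins.

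Values are log2 processed signals minus the 75th percentile of the same array, called scaled log2 signals. A value of 0 stands at that percentile, a difference of 1 is a factor of 2, and levels of different probes are not compared. Each contrast was tested with limma over all 12606 genes, and a call needed a p under 0.05 after Benjamini-Hochberg adjustment. On each array 60.6% to 71.5% of the probes stood well above background, the 75th percentile was 1265 to 2078 intensity units, and saturation was seen at 0 spots. The EEF1D-1357 arrays shared slide 1 with control replicate 2, whereas those of EEF1D-1893 shared slide 2 with control replicate 1. The target itself, EEF1D, had scaled log2 signals of 5.98, 5.87 and 5.10 with EEF1D-1357, 6.0, 5.75 and 5.78 with EEF1D-1893, and 7.13 and 6.15 in the controls. Every shRNA array lay below both controls, but the log2 fold change of both shRNAs over control, -0.89 (SE 0.32), did not pass (limma adjusted p = 0.243). Of the luminal epithelial markers, 9 of 12 were well above background on every array of each group, and ESR1 and PRLR were on none. By the same measure, basal markers were detected for 8 of 9 in the controls and 7 of 9 with each hairpin. Fibroblast markers were detected for 7 of 9 in the controls, 3 with EEF1D-1357 and 5 with EEF1D-1893, and leukocyte markers for 5 of 7 in each group. Milk markers were detected for 3 of 6 in the controls and 2 of 6 with each hairpin, with CSN1S2 and LALBA on no array. Basal markers KRT5, KRT14, KRT17, TP63, ACTA2, MYLK, OXTR and CNN1 were all lower with the shRNAs (8 of 8 tested, median log2 fold change -0.61). Fibroblast markers were lower in 8 of 8 tested (median -0.51), luminal markers in 7 of 9 tested (median -0.32) and leukocyte markers in 4 of 5 tested (median -0.11). Of all 12606 genes, 7201 were lower (median -0.07). By hairpin, the fibroblast median was -0.82 for EEF1D-1357 over control (8 of 8 lower) and -0.15 for EEF1D-1893 (7 of 8 lower). Between the hairpins 8 of 8 fibroblast markers were lower with EEF1D-1357 (median -0.60). The basal median was -0.91 for EEF1D-1357 over control and -0.28 for EEF1D-1893. The part of these markers in the antioxidant values was not tested. The median deviation of the basal markers from their 8-array means ran from -0.66 to 0.63 in the 6 shRNA arrays and was 0.64 and 0.77 in the controls. For the fibroblast markers it ran from -0.77 to 0.54 in the shRNA arrays and was 0.31 in both controls. For the luminal markers it ran from -0.14 to -0.06 in the shRNA arrays and was 0.60 and -0.07 in control replicates 1 and 2.

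Probe sequences show what was read for 2 peroxidases. GPX8, an endoplasmic reticulum peroxidase, carried the smallest p-value of the 47 genes for both shRNAs against control, and its 2 probes overlap by 58 bases with 5 different bases in that overlap. The stretch chr20:25605775-25605804 of each probe (Btau_3.1, minus strand) is printed 5′ to 3′ with the different bases in capitals.
GPX8 probe A_73_P039611: gAattCAagatactgtgtgacatttCcAga
GPX8 probe A_73_P133491: gGattTCagatactgtgtgacatttTcCga
The second probe, which carries an expressed sequence tag accession, gave a log2 fold change of 0.86 for both shRNAs over control, and the first gave 0.74. GPX1, the cytosolic glutathione peroxidase, has 3 probes, and 2 of them cover the same 60 bases, chr22:51685240-51685299 (Btau_3.1), on opposite strands. They are shown in full because the minus-strand probe is the reverse complement of the plus-strand one and would not pair with the same strand of labelled RNA.
GPX1 probe A_73_P031771, plus strand: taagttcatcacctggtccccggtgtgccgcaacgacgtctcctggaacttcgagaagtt
GPX1 probe A_73_P098966, minus strand: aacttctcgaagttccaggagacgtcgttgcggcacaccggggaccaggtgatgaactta
Both were well above background on all 8 arrays, with log2 fold changes of 0.48 and 0.43 for both shRNAs over control, and the brightest GPX1 probe had 0.56. Why the minus-strand probe followed the others was not tested.

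No antioxidant gene was called in any of the 4 contrasts, and neither was any other gene (0.0% of 12606 genes, limma adjusted p under 0.05). The counts rest on the controls and the slides: without control replicate 2, TKT, TXNRD2, PRDX3, GPX4 and SOD1 were called for both shRNAs (5 of 47, among 2933 genes), and without control replicate 1 no antioxidant gene was (0 of 47, among 26 genes). With slide as a block, 714 genes were called for both shRNAs and 28 for EEF1D-1357 with no antioxidant gene among them, and 1852 were called for EEF1D-1893, among them PRDX3, GPX4 and SOD1 (3 of 47). At an unadjusted p under 0.05, both shRNAs against control gave 2 of 47 antioxidant genes (4.26%), GPX8 on the higher and GSS on the lower side, where all genes gave 16.9%. EEF1D-1357 against control gave 5 of 47 (10.6%), against 16.2% of all genes. EEF1D-1893 against control gave 2 of 47 (4.26%), against 14.1% of all genes. EEF1D-1357 against EEF1D-1893 gave 5 of 47 (10.6%), against 6.41% of all genes. Fitted on the hairpin groups alone, this contrast gave the same 5 of 47 (10.6%), against 13.9% of all genes. For each hairpin against control, the slide block is the same fit as leaving out the control of the other slide. The unadjusted counts moved when 1 array was left out or slide was a block. For both shRNAs against control they reached 14 of 47 without control replicate 2 (29.8%, against 41.3% of all genes), 4 without control replicate 1 and 7 with the slide block, and without control replicate 1 neither GPX8 nor GSS was among them. For EEF1D-1357 against control they ran from 1 without EEF1D-1357 replicate 2 to 14 without control replicate 2, and for EEF1D-1893 against control they were 13 without control replicate 2 and with the slide block (27.7%, against 36.7% of all genes) and 6 without control replicate 1. Between the hairpins the count was 0 without EEF1D-1357 replicate 2 (2.59% of all genes), 2 without EEF1D-1893 replicate 1 (4.26%, against 4.35%) and 3 without EEF1D-1357 replicate 1 (6.38%, against 3.61%). With slide as a block it was 11 (23.4%, against 26.2% of all genes), and these shared 0 genes with the 5.

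The typical shift was small in each contrast. For both shRNAs against control the median log2 fold change was -0.04 over the 47 genes and -0.07 over all genes, with 20 antioxidant genes higher and 27 lower. With median scaling the medians were 0.04 and 0.01 and the split was 27 higher and 20 lower, so the side of the typical gene rests on the scaling. The antioxidant median was also 0.08 without control replicate 1 (29 higher and 18 lower) and -0.13 without control replicate 2 (21 higher and 26 lower). The median size without sign was 0.21 for the antioxidant genes and 0.26 for all genes. It was 0.24 against 0.29 for EEF1D-1357, 0.18 against 0.26 for EEF1D-1893, and 0.19 against 0.18 between the hairpins. The 95% interval of the log2 fold change stayed within 1 unit of 0 for 36 of the 47 genes (76.6%; 66.6% of all genes), so for these a 2-fold difference between both shRNAs and control lay outside the interval. For the other genes, among them HMOX1, GPX1, GPX3, MT1E and MT2A, the arrays did not limit the difference that closely.

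**Figure D1:**
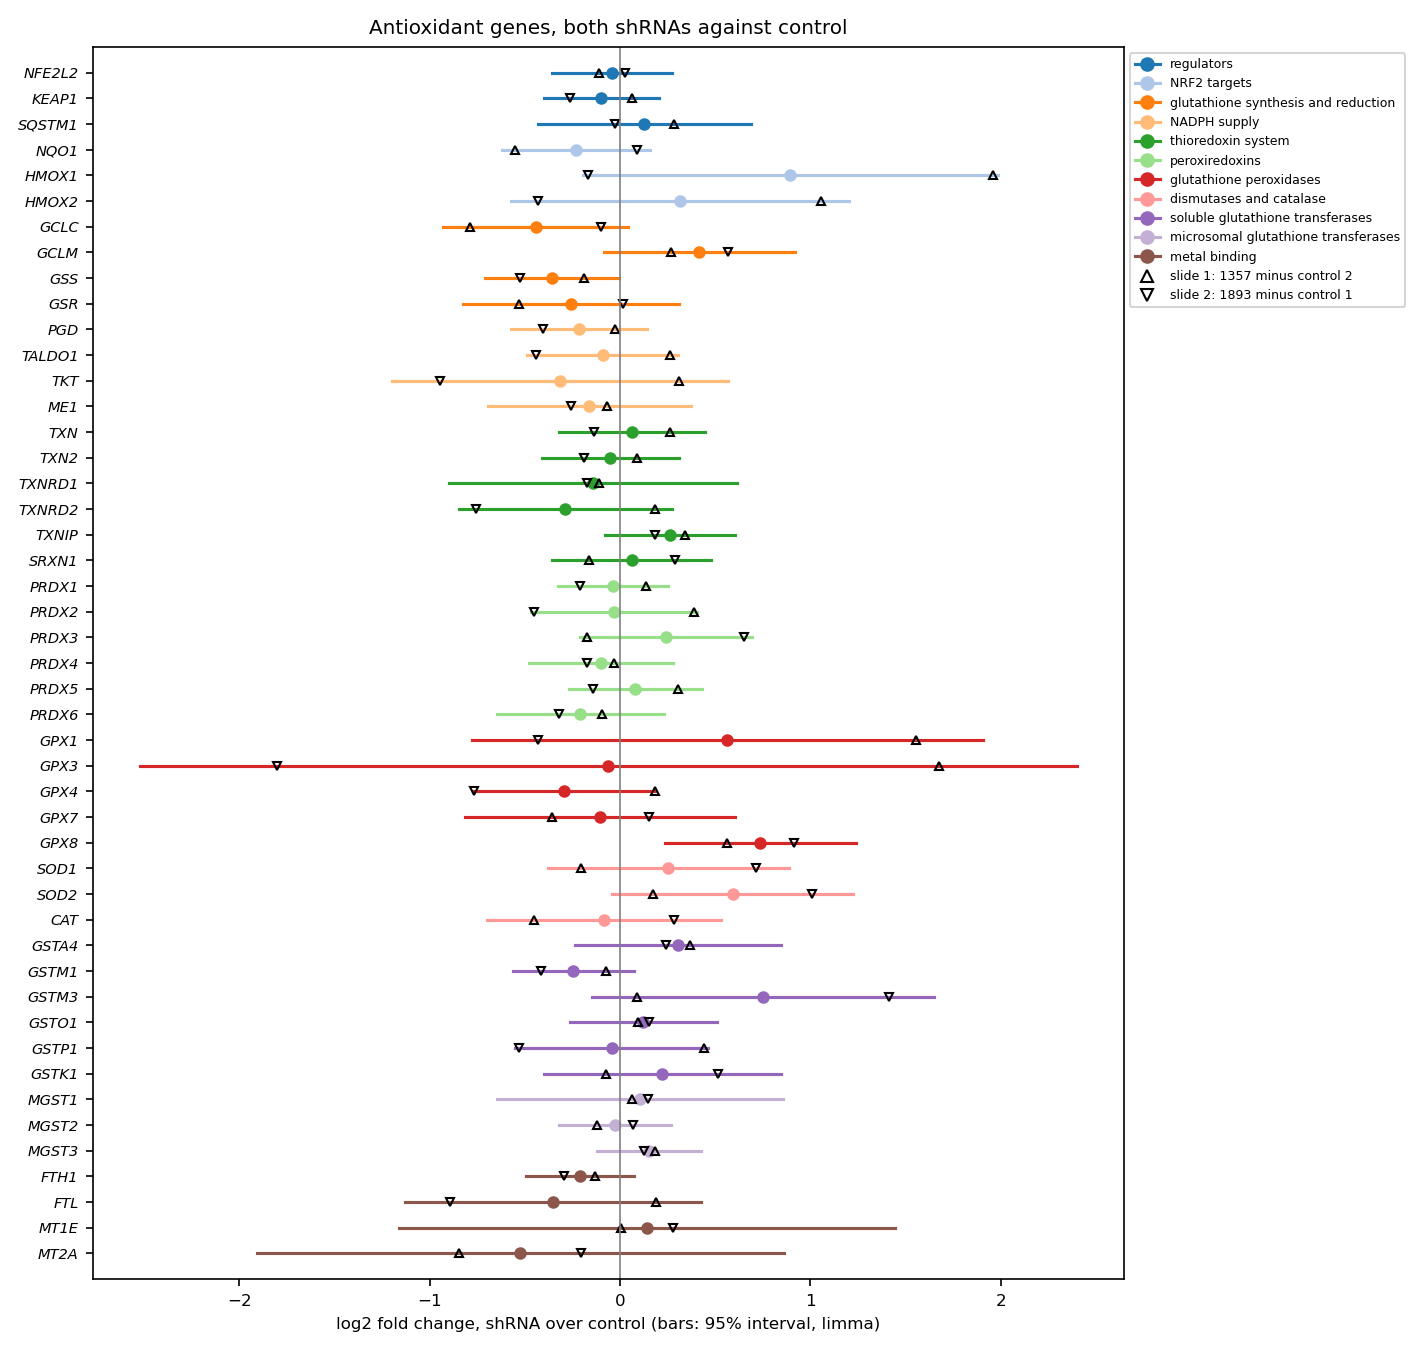
Log2 fold change of both shRNAs over control for 47 antioxidant genes (points, x axis) with the 95% interval of limma (bars), coloured by role, beside the difference on each slide (triangles). The interval of GPX8 alone stays above 0, that of GSS ends just below 0 (-0.71 to -0.00), and the widest bars are those of GPX3, MT2A, GPX1 and MT1E.

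On their brightest probes the regulators showed little difference between groups. NFE2L2 (brightest probe at chr2:20231207-20231266, Btau_3.1) read 1.62, 1.67 and 1.39 with EEF1D-1357, 1.55, 1.46 and 1.44 with EEF1D-1893, and 1.46 and 1.67 in the controls. All 3 groups overlapped, and the log2 fold change of both shRNAs was -0.04 (95% interval -0.36 to 0.27, limma adjusted p = 0.889). The other 3 NFE2L2 probes had 0.60, 0.13 and 0.25, so the sign rests on the probe chosen. KEAP1, the adaptor that targets NRF2 to the CUL3 ubiquitin ligase, read 5.13, 5.14 and 4.99 with EEF1D-1357, 4.96, 5.06 and 5.09 with EEF1D-1893, and 5.29 and 5.02 in the controls. The groups overlapped here too, with a log2 fold change of -0.10 (95% interval -0.40 to 0.20, adjusted p = 0.713), and its other probes ran from -0.03 to 0.64. SQSTM1, the p62 autophagy receptor that can bind KEAP1, had 0.13 (SE 0.24), and its other probes had -0.13 and -0.14.

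The commonly used NRF2 targets did not move in one direction. NQO1, a quinone reductase, read -1.30, -1.40 and -0.96 with EEF1D-1357, -0.57, -0.87 and -0.57 with EEF1D-1893, and -0.76 and -0.67 in the controls. All 3 EEF1D-1357 arrays lay below every other array, while the EEF1D-1893 arrays stood around the controls. The log2 fold change was -0.51 (SE 0.18, adjusted p = 0.265) for EEF1D-1357 over control, 0.04 (SE 0.18) for EEF1D-1893 over control and -0.55 (SE 0.16, adjusted p = 0.747) for EEF1D-1357 over EEF1D-1893. A second NQO1 probe, overlapping the first, gave -0.52, -0.10 and -0.42 in the same order. On that probe EEF1D-1357 replicate 3, at -0.83, lay above control replicate 1 (-0.88) and EEF1D-1893 replicate 2 (-1.09).

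HMOX1, the inducible haem oxygenase, had the largest log2 fold change of the 47 genes for both shRNAs over control, and it turned on which control was used. It read 6.36, 6.12 and 5.90 with EEF1D-1357, 5.04, 6.27 and 5.53 with EEF1D-1893, and 5.78 and 4.17 in control replicates 1 and 2. The EEF1D-1357 arrays lay above both controls, and the EEF1D-1893 arrays lay on both sides of control replicate 1. The log2 fold change over both shRNAs was 0.89 (SE 0.46, adjusted p = 0.363), and it was 1.70 without control replicate 1 but 0.09 without control replicate 2. HMOX2, the constitutive form, had 0.31 (SE 0.38), with controls at 5.36 and 3.87.

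**Figure D2:**
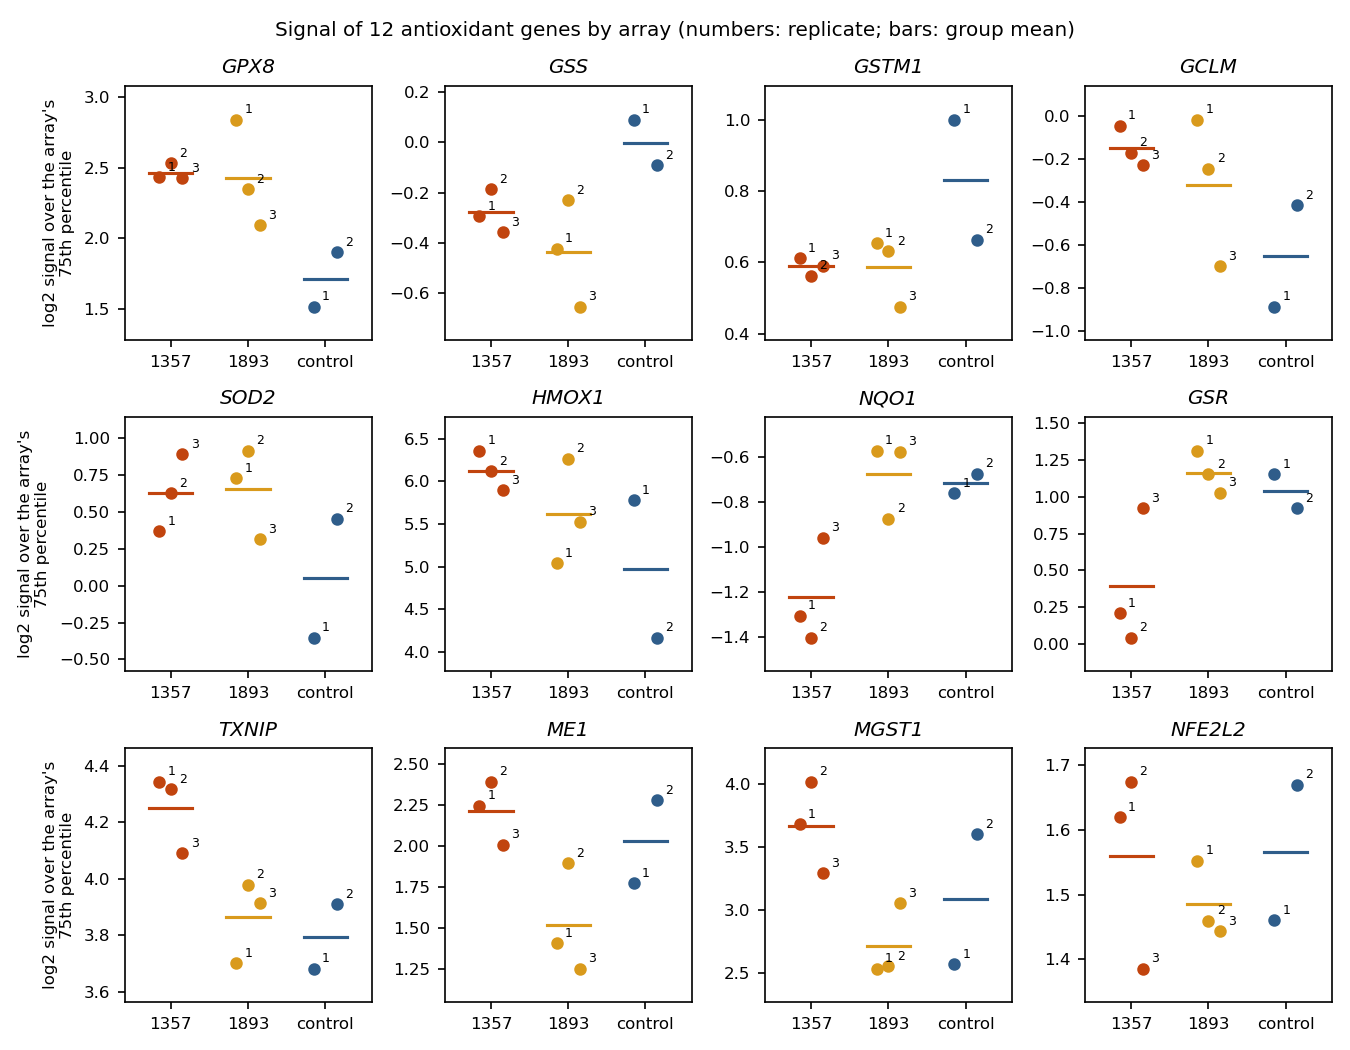
Scaled log2 signal (y axis) of 12 antioxidant genes on each array, with EEF1D-1357, EEF1D-1893 and control from left to right, replicate numbers beside the points and bars at group means. GPX8 lies above both controls on all 6 shRNA arrays, GSS and GSTM1 lie below, NQO1 is lowest on the 3 EEF1D-1357 arrays, and GSR is lowest on EEF1D-1357 replicates 1 and 2.

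Glutathione synthesis had members on both sides. GCLM, the modifier subunit of glutamate-cysteine ligase, read -0.05, -0.17 and -0.23 with EEF1D-1357, -0.02, -0.24 and -0.70 with EEF1D-1893, and -0.89 and -0.41 in the controls. The EEF1D-1357 arrays lay above both controls, and EEF1D-1893 replicate 3 lay between them. Its log2 fold change over both shRNAs was 0.42 (SE 0.21, adjusted p = 0.360), and it was 0.18 without control replicate 1 and 0.65 without control replicate 2. GCLC, the catalytic subunit, had -0.44 (SE 0.21, adjusted p = 0.326), from a dim probe that was well above background on 5 arrays: 1 of 3 with EEF1D-1357, 2 of 3 with EEF1D-1893 and 2 of 2 controls. Without control replicate 1 the GCLC value was -0.68, and without control replicate 2 it was -0.21. It was -0.15 with quantile normalization and -0.02 with normexp background correction and quantile normalization.

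GSS, glutathione synthetase, read -0.29, -0.19 and -0.36 with EEF1D-1357, -0.42, -0.23 and -0.66 with EEF1D-1893, and 0.09 and -0.09 in the controls. All 6 shRNA arrays lay below both controls, and the log2 fold change was -0.36 (SE 0.15, unadjusted p = 0.0482, adjusted p = 0.292, limma). The groups did not overlap in this contrast for 3 of the 47 genes (GSS, GSTM1 and GPX8; 6.38%), against 16.8% of all genes. The second GSS probe pointed the other way, with a log2 fold change of 0.40, so the 2 probes of this gene disagree.

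GSR, glutathione reductase, regenerates reduced glutathione with NADPH. It read 0.21, 0.04 and 0.92 with EEF1D-1357, 1.31, 1.15 and 1.03 with EEF1D-1893, and 1.15 and 0.92 in the controls. EEF1D-1357 replicates 1 and 2 were the lowest arrays, and replicate 3 was level with control replicate 2. The log2 fold change was -0.64 (SE 0.27, adjusted p = 0.303) for EEF1D-1357 over control, 0.13 (SE 0.27) for EEF1D-1893 over control and -0.77 (SE 0.24, adjusted p = 0.747) for EEF1D-1357 over EEF1D-1893. Its second probe gave -0.31, 0.35 and -0.67 in that order, and over both shRNAs the probes differed in sign, at -0.26 and 0.02.

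The 4 NADPH supply enzymes were all on the lower side for both shRNAs against control, with log2 fold changes from -0.32 (TKT) to -0.09 (TALDO1), and none passed. That shared side rests on both control arrays: without control replicate 1 TKT had 0.42, TALDO1 0.18 and PGD 0.01, and without control replicate 2 ME1 had 0.09. PGD, the second dehydrogenase of the pentose phosphate pathway, had -0.22 (SE 0.15). TKT, transketolase, read 7.45 and 5.97 in control replicates 1 and 2, with the 6 shRNA arrays between them. ME1, the cytosolic malic enzyme, read 2.24, 2.39 and 2.01 with EEF1D-1357, 1.41, 1.90 and 1.25 with EEF1D-1893, and 1.77 and 2.28 in the controls. The hairpins did not overlap for ME1 and the controls spanned the gap, with a log2 fold change of 0.70 (SE 0.23, adjusted p = 0.747) for EEF1D-1357 over EEF1D-1893. TALDO1, transaldolase, also kept the hairpins apart, at 0.16 (SE 0.17, adjusted p = 0.823).

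In the thioredoxin system TXNIP stood out, the arrestin-like protein that binds and inhibits thioredoxin. It read 4.34, 4.32 and 4.09 with EEF1D-1357, 3.70, 3.98 and 3.91 with EEF1D-1893, and 3.68 and 3.91 in the controls. The EEF1D-1357 arrays lay above all others, and the EEF1D-1893 arrays overlapped the controls. The log2 fold change was 0.46 (SE 0.16, adjusted p = 0.259) for EEF1D-1357 over control, 0.07 (SE 0.16) for EEF1D-1893 over control and 0.39 (SE 0.14, adjusted p = 0.747) for EEF1D-1357 over EEF1D-1893. Its 4 probes gave from -0.06 to 0.97 for EEF1D-1357 over control. TXN, thioredoxin 1, had a log2 fold change of 0.06 over both shRNAs (95% interval -0.32 to 0.44), and SRXN1, sulfiredoxin, which repairs over-oxidised peroxiredoxins, had 0.06 (-0.36 to 0.48). TXNRD1, the cytosolic thioredoxin reductase, had -0.14 (-0.90 to 0.62), with EEF1D-1893 replicate 1 highest at 3.97 against 2.55 to 3.54 on the other arrays. The mitochondrial TXN2 and TXNRD2 had -0.05 (SE 0.15) and -0.29 (SE 0.24).

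The 6 peroxiredoxins, which reduce peroxides through a reactive cysteine, had narrow spreads. Their log2 fold changes over both shRNAs ran from -0.21 (PRDX6) to 0.24 (PRDX3), with 2 higher and 4 lower and none past the test, and with median scaling or without control replicate 1 the split was 4 higher and 2 lower. PRDX1 had 3.45, 3.49 and 3.47 with EEF1D-1357, 3.45, 3.32 and 3.28 with EEF1D-1893, and 3.56 and 3.33 in the controls. PRDX1 and PRDX2 kept the hairpins apart, with log2 fold changes of 0.12 (SE 0.12) and 0.29 (SE 0.19) for EEF1D-1357 over EEF1D-1893 (adjusted p = 0.813 and 0.752).

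Among the glutathione peroxidases, GPX8 (probe at chr20:25605759-25605818, the GPX8 stretch above lies within it) read 2.43, 2.53 and 2.42 with EEF1D-1357, 2.84, 2.35 and 2.10 with EEF1D-1893, and 1.51 and 1.90 in the controls. All 6 shRNA arrays lay above both controls, and the hairpins overlapped. The log2 fold change was 0.74 (SE 0.21, unadjusted p = 0.0104, adjusted p = 0.194) over both shRNAs, 0.75 (SE 0.24, adjusted p = 0.235) for EEF1D-1357 and 0.72 (SE 0.24, adjusted p = 0.286) for EEF1D-1893. With no overlap with the controls, the direction could not change by slide or by control left out. The size was 0.56 on slide 1 and 0.91 on slide 2, and it was 0.54 without control replicate 1 and 0.93 without control replicate 2. No other antioxidant gene exceeded 0.5 in size with the same direction on both slides (2.13% of 47 genes, against 7.54% of all genes).

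The other peroxidases were spread by single arrays. GPX1 read 3.83, 4.13 and 4.58 with EEF1D-1357, 4.12, 3.95 and 5.05 with EEF1D-1893, and 4.80 and 2.63 in the controls, so its log2 fold change of 0.56 (SE 0.57) sits inside the gap between the controls. All 3 GPX1 probes were lowest in control replicate 2. GPX4, which reduces lipid hydroperoxides in membranes, had -0.29 (SE 0.20), at 0.10 without control replicate 1 and -0.68 without control replicate 2. GPX7, another endoplasmic reticulum peroxidase, had -0.10 (SE 0.30), with EEF1D-1357 replicate 3 at -0.73 against 0.32 to 0.58 elsewhere. GPX3, the secreted form, was well above background on 4 arrays (2 of 3 with EEF1D-1357, 1 of 3 with EEF1D-1893 and 1 of 2 controls) and had -0.06 (SE 1.04).

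**Figure D3:**
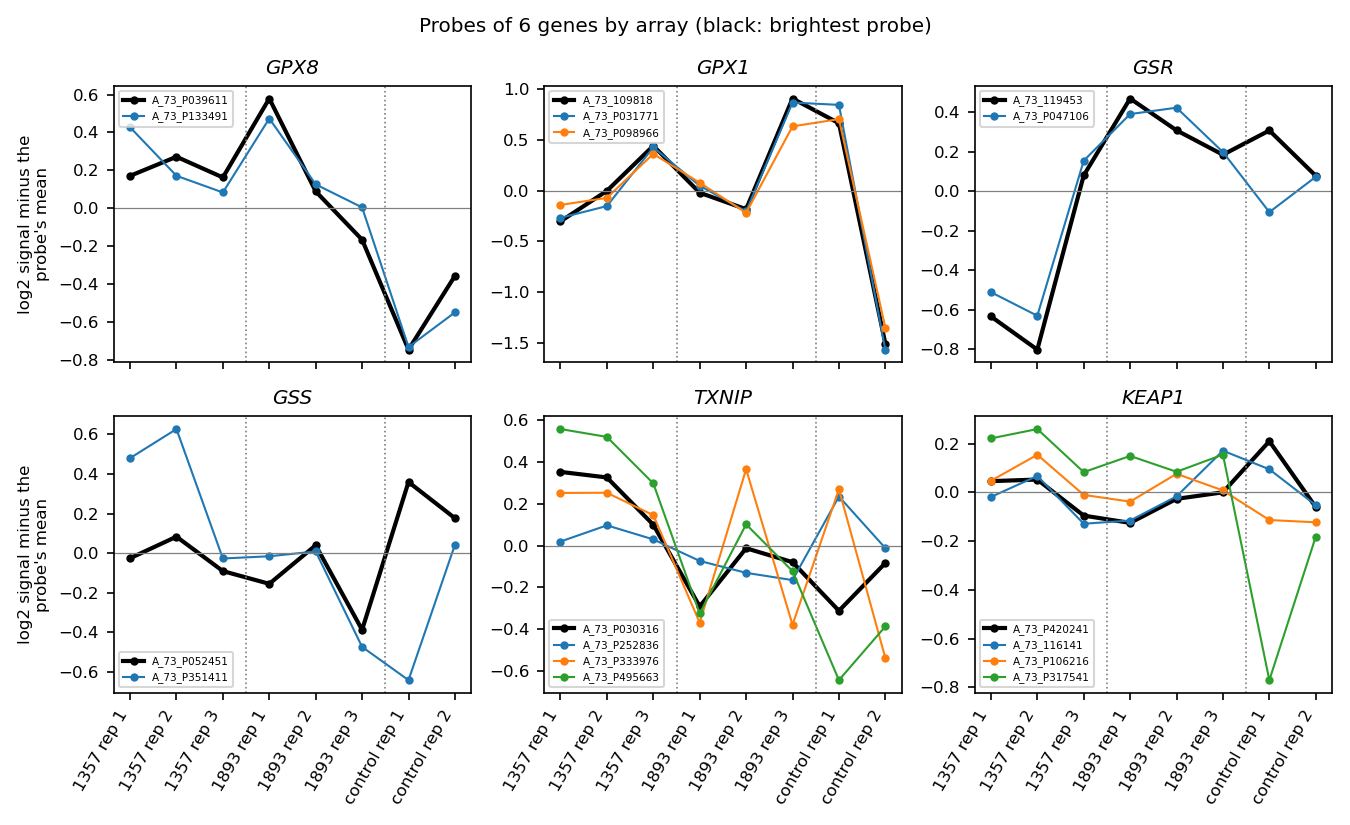
Scaled log2 signal minus the probe's own 8-array mean (y axis) for every kept probe of GPX8, GPX1, GSR, GSS, TXNIP and KEAP1 across the 8 arrays (x axis, EEF1D-1357, EEF1D-1893, control), with the brightest probe in black. The probes of GPX8 and GPX1 run close together, and the GSR probes share their lowest arrays, EEF1D-1357 replicates 1 and 2, but part in control replicate 1. In the other panels the GSS probes diverge in control replicate 1 and 1 KEAP1 probe drops there.

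SOD2, the mitochondrial superoxide dismutase, read 0.37, 0.63 and 0.90 with EEF1D-1357, 0.73, 0.92 and 0.32 with EEF1D-1893, and -0.35 and 0.46 in the controls. Each hairpin had 1 array below control replicate 2, and the log2 fold change was 0.59 (SE 0.27, adjusted p = 0.317), with 0.51 from its second probe. SOD1, the cytosolic dismutase, had 0.25 (SE 0.27) with controls at 3.06 and 4.17. Catalase, CAT, had -0.08 (SE 0.26).

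Of the soluble glutathione transferases, which attach glutathione to electrophiles, 4 were higher and 2 lower over both shRNAs. GSTM1 read 0.61, 0.56 and 0.59 with EEF1D-1357, 0.65, 0.63 and 0.48 with EEF1D-1893, and 1.00 and 0.66 in the controls. All 6 shRNA arrays lay below both controls, EEF1D-1893 replicate 1 by little, and the log2 fold change was -0.24 (SE 0.13, adjusted p = 0.387). It was -0.08 without control replicate 1 and -0.41 without control replicate 2. The GSTM1 probe carries the accession of a gene that the RefSeq table lists as LOC327709, and 8 of the 9 probes with the GSTM1 symbol belong to such neighbouring loci, so the signal cannot be given to a single mu-class gene. GSTM3 had the largest log2 fold change of this class, 0.75 (SE 0.38, adjusted p = 0.358), with -1.88, -1.73 and -2.13 for EEF1D-1357, -2.17, -1.90 and -0.99 for EEF1D-1893, and -3.10 and -2.00 in the controls. GSTO1, an omega-class enzyme, kept EEF1D-1893 apart from the controls at 0.25 (SE 0.18, adjusted p = 0.572). GSTA4 had 0.30 (SE 0.23), GSTK1 0.22 (SE 0.26) and GSTP1 -0.04 (SE 0.21) over both shRNAs.

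MGST1, a membrane-bound transferase, read 3.68, 4.02 and 3.29 with EEF1D-1357, 2.53, 2.55 and 3.05 with EEF1D-1893, and 2.57 and 3.60 in control replicates 1 and 2. Each control resembled the hairpin on its own slide: the within-slide differences were 0.06 for EEF1D-1357 and 0.14 for EEF1D-1893. The log2 fold change of EEF1D-1357 over EEF1D-1893, 0.95 (SE 0.32, adjusted p = 0.747), became -0.08 with slide as a block, and for this gene hairpin and slide cannot be told apart without the controls. MGST2 and MGST3 had -0.03 (SE 0.12) and 0.15 (SE 0.12) over both shRNAs.

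The metal-binding genes had log2 fold changes from -0.52 to 0.14 over both shRNAs, with 3 of 4 on the lower side. Each of these 3 had the other sign under some setting: FTL had 0.06 without control replicate 1, MT2A had 0.12 without control replicate 2, and FTH1 had 0.05 with quantile normalization. FTH1, the ferritin heavy chain, read 8.08, 8.07 and 8.12 with EEF1D-1357, 8.24, 8.09 and 8.09 with EEF1D-1893, and 8.43 and 8.22 in the controls, a log2 fold change of -0.21 (SE 0.12, adjusted p = 0.399). The EEF1D-1357 arrays lay below both controls, and EEF1D-1893 replicate 1 lay between them. For EEF1D-1357 its value of -0.23 likewise turned to 0.09 with quantile normalization. FTL, the ferritin light chain, had -0.35 (SE 0.33) over both shRNAs. The metallothioneins varied among replicates of the same shRNA: with EEF1D-1893, MT1E read -1.23, -1.88 and 0.26 and MT2A read 2.39, 2.05 and 3.88. Over both shRNAs they had 0.14 (SE 0.55) and -0.52 (SE 0.59). A second MT1E probe, well above background on 7 arrays, had -2.36 (SE 1.78), and the mean of the kept MT1E probes gave -1.11, so the sign of MT1E rests on the probe chosen.

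**Figure D4:**
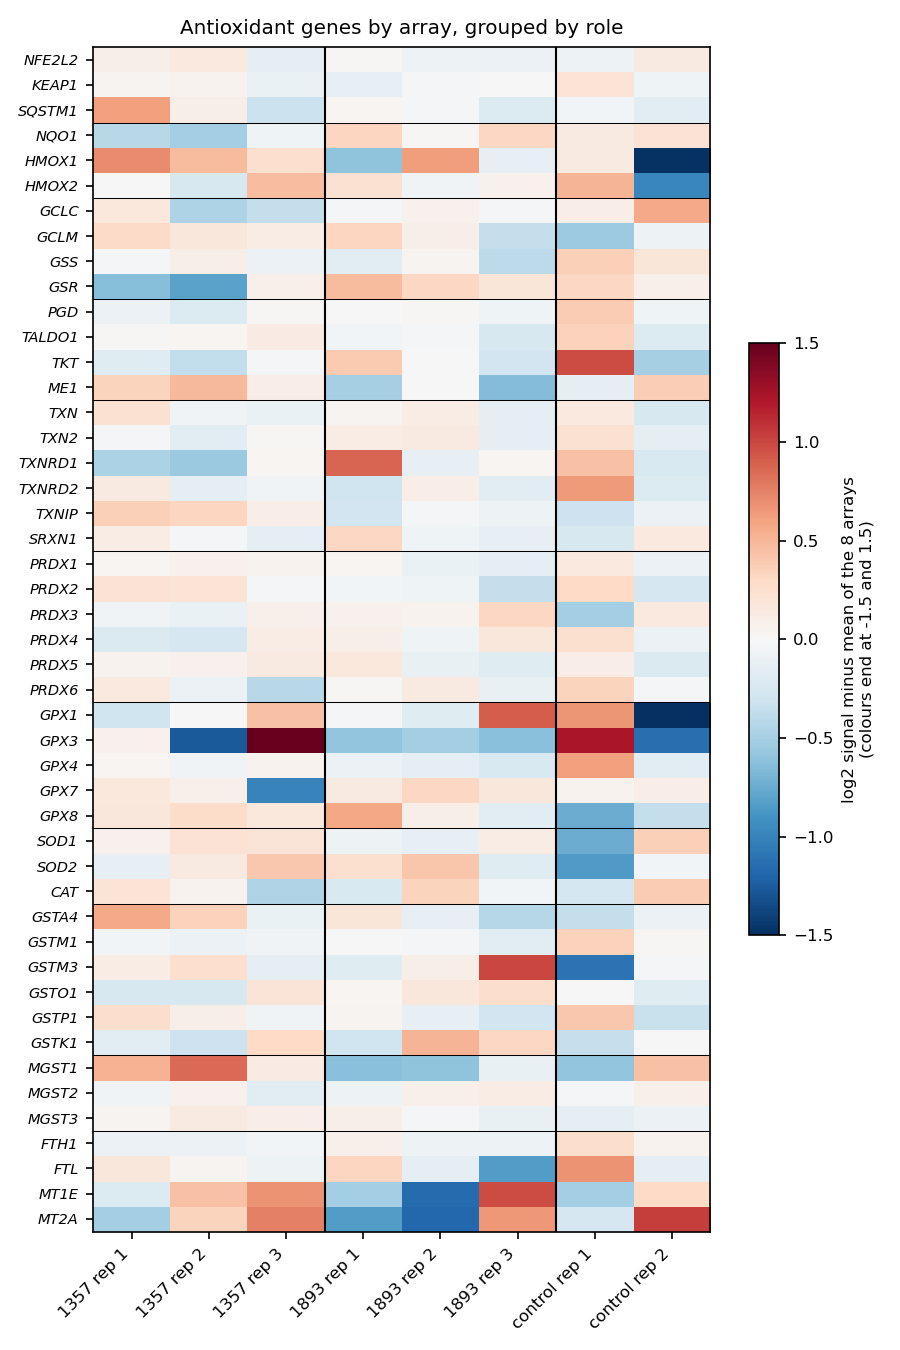
Deviation of 47 antioxidant genes (rows, grouped by role) from their 8-array mean scaled log2 signal on each array (columns, EEF1D-1357, EEF1D-1893, control), with colours ending at -1.5 and 1.5. Strong colours mark HMOX1 and GPX1 in control replicate 2, TKT in control replicate 1, and GPX3 and the metallothioneins on several arrays.

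The 2 control arrays limited the precision of every contrast against control, and between the hairpins they entered only through the shared estimate of the spread. Over the 47 genes the SD of the difference between the control replicates was 0.80, against 0.31 to 0.70 for pairs of arrays with the same shRNA, and over all genes it was 0.83. For 9 of 47 antioxidant genes (19.1%; 18.3% of all genes) the controls differed by over 1 unit: GPX3, GPX1, HMOX1, HMOX2, TKT, MT2A, SOD1, GSTM3 and MGST1. Control replicate 1 also had the lowest median correlation with the other arrays (0.973), the lowest 75th percentile and the highest spike-in signal over it (1.69, against 0.50 to 1.01), and the part of these in the differences was not tested.

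Because each slide held 1 control, the hairpins can be read against the control of their own slide. The direction was the same on both slides for 20 of 47 antioxidant genes (10 higher and 10 lower, 42.6%), against 53.3% of all genes. Beyond 0.25 in size on both slides stood GCLM (0.27 on slide 1 and 0.57 on slide 2) and GPX8, or 4.26% of the 47 genes, against 20.7% of all genes. HMOX1 (1.96 and -0.17), GPX1 (1.56 and -0.43) and GPX3 (1.68 and -1.80) had opposite directions, and so did TKT (0.31 and -0.95). GSS (-0.19 and -0.53), GSTM1 (-0.08 and -0.41), SOD2 (0.17 and 1.01) and GSTM3 (0.09 and 1.41) kept their direction and were smaller on slide 1. For GPX8, GSS and GSTM1 the shared direction follows from the lack of overlap with the controls.

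**Figure D5:**
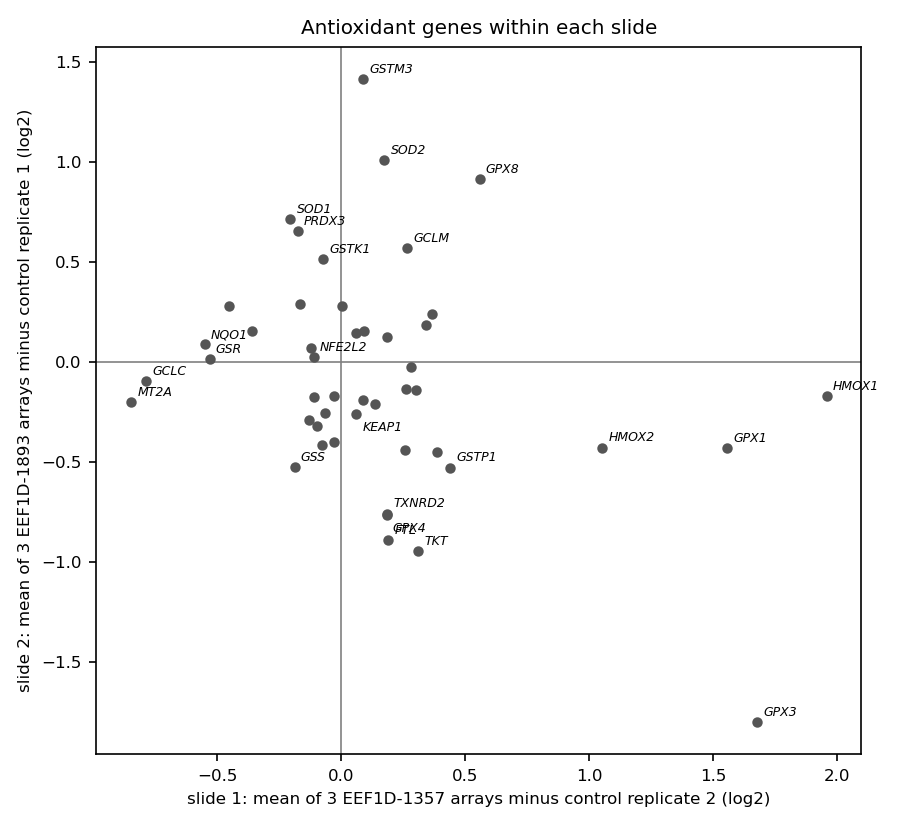
Difference of the 3 EEF1D-1357 arrays from control replicate 2 on slide 1 (x axis, log2) against the difference of the 3 EEF1D-1893 arrays from control replicate 1 on slide 2 (y axis, log2) for 47 antioxidant genes. GPX8 and GCLM lie in the upper right, and GPX3, GPX1, HMOX1 and HMOX2 lie far to the right and below 0.

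Between the hairpins, 9 of 47 antioxidant genes did not overlap (19.1%), against 21.6% of all genes. TALDO1, ME1, TXNIP, PRDX1, PRDX2, GPX4 and MGST1 were higher with EEF1D-1357 (14.9%, against 6.77% of all genes), and NQO1 and GSR were lower (4.26%, against 14.8%). At an unadjusted p under 0.05, ME1, TXNIP and MGST1 were higher (6.38%, against 2.59% of all genes) and NQO1 and GSR lower (4.26%, against 3.82%), and the smallest adjusted p was 0.747. Fitted on the hairpin groups alone, the same 5 genes (10.6%) stood against 13.9% of all genes in either direction. The hairpins lay on different slides, so in this contrast hairpin and slide cannot be told apart except through the single control of each slide. With slide as a block the log2 fold changes were -0.64 for NQO1, -0.54 for GSR, 0.19 for ME1, 0.16 for TXNIP, 0.35 for PRDX1, 0.84 for PRDX2, 0.70 for TALDO1 and 0.95 for GPX4, none past the test (adjusted p = 0.0857 for GPX4, limma), where GPX4 had 0.17 (SE 0.20) without the block. For EEF1D-1357 against control, 9 of 47 did not overlap (19.1%), against 30.6% of all genes, and for EEF1D-1893 against control 6 of 47 (12.8%), against 28.2%. GCLC and GPX7 were named there besides genes above, GCLC at -0.33 (SE 0.23, adjusted p = 0.544) and GPX7 at 0.13 (SE 0.34, adjusted p = 0.892) for EEF1D-1893 over control. These 2 contrasts share both control arrays.

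Several probes of one gene often disagreed in sign. Of 36 antioxidant genes with more than 1 kept probe, 14 had probes of both signs for both shRNAs against control, 11 for EEF1D-1357, 10 for EEF1D-1893 and 8 between the hairpins. Among 18 of them with probes at least 500 bases apart on one strand, the probe nearer the 5′ end had the higher log2 fold change in 8 (44.4%), against 43.8% of 4414 genes measured that way. The 18 include GSTM1 and MT1E, whose probe pairs lie 68675 and 5094 bases apart on loci that the RefSeq table names differently. These pairs do not compare the ends of a single gene.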

How the data were processed

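The deposited scanner files hold a 1-colour Cy3 intensity per spot, written per the file headers by Agilent Feature Extraction 10.7.3.1 (9.1 per the submitters' processing notes), and place probes on Btau_3.1. The processed intensity is background-subtracted and not normalized between arrays. The series table deposited by the authors holds log2 values with a median of 7.56 in each array that correlated with the scanner values at 0.998 to 1.000. It served only as an alternative.

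After removal of 238 outlier probes from 43653 non-control probes, 43415 remained. Log2 processed intensity minus each array's 75th percentile was used, for the 30702 probes that stood well above background on 2 or more arrays (25537 with a name) and for the brightest probe of each of 12606 genes. Members were named by the gene name in the files. Other probes were named by the RefSeq gene table (ARS-UCD2.0, names only). Of 123 member probes, 111 carry the same name there and 12 another (GSTM1, GSTP1 and MT1E).

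The 3 group means were estimated together from the 8 arrays (limma 3.58.1, R 4.3.3; 5 residual degrees of freedom and 2.13 from the prior), and tests were two-sided. Fold changes are shRNA over control or EEF1D-1357 over EEF1D-1893. The fit was tested on simulated data. Named were EEF1D, a fixed set of regulators and targets, and up to 8 members per contrast by p-value among those whose groups did not overlap. Values of further members were chosen after seeing them. The members, roles and lists were chosen with earlier results of these data known.

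Alternatives were other background correction, scaling, filters, probe choice, naming, values, prior, threshold and arrays, the slide or replicate number as a block, and each array left out. Same-numbered EEF1D-1357 and EEF1D-1893 arrays had deviations correlated at 0.11, -0.11 and 0.08. With the control of the same number the correlations were 0.09 and 0.08 for EEF1D-1357 and 0.14 and 0.08 for EEF1D-1893. Deviations within groups of 2 or 3 arrays cannot decide whether the numbers pair the arrays, so pairing served only as an alternative.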

Additional observations from a re-analysis of the deposited data

How the results depend on the processing

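The call of 0 antioxidant genes held under every alternative except the slide block for EEF1D-1893 against control (3: PRDX3, GPX4 and SOD1) and the fits without control replicate 2, and arrays left out in turn gave 0 to 5 for both shRNAs, 0 to 3 for EEF1D-1357, 0 to 3 for EEF1D-1893 and 0 between the hairpins. Without control replicate 2 the calls were TKT, TXNRD2, PRDX3, GPX4 and SOD1 for both shRNAs, TKT, GPX4 and SOD1 for EEF1D-1357, and PRDX3, GPX4 and SOD1 for EEF1D-1893. With 1 control left, that control is assumed to vary like the shRNA groups, and the slide block takes its spread from the shRNA arrays alone. For each hairpin against control these are not separate checks, because the slide block is the same fit as leaving out the control of the other slide. For both shRNAs, genes called numbered 2 with an intensity trend and robust prior, 714 with the slide block, 18 at an adjusted p under 0.1, and 0 to 2933 with an array left out (26 without control replicate 1 and 2933 without control replicate 2). For EEF1D-1357 they numbered 3 with the filter on all 8 arrays, 2 with the trend and robust prior, 28 with the slide block, 8 at an adjusted p under 0.1 and 0 to 2919 with an array left out (28 without control replicate 1). For EEF1D-1893 they numbered 1852 with the slide block and 0 to 1852 with an array left out (25 without control replicate 1 and 1 without EEF1D-1357 replicate 3). Between the hairpins they numbered 1 with normexp and quantile normalization, 6 with the slide block and 0 with any array left out. The replicate block called 0 genes and 0 antioxidant genes in each contrast.

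Of 391 values of the named genes under other settings 380 kept their direction, and of 272 with an array left out 265 did. Pairs named for groups that do not overlap cannot change direction when an array is left out. The second count therefore follows largely from the choice of genes. With the mean of a gene's probes the log2 fold change became 0.021 for GSS over both shRNAs and 0.19 for EEF1D-1357, 0.24 for NFE2L2, 0.17 for KEAP1 and 0.053 for TXNRD1. FTH1 with EEF1D-1357 became 0.042 with normexp, 0.090 with quantile normalization and 0.10 in the deposited table. MGST1 between the hairpins became -0.083 with the slide block. NFE2L2 became 0.036 with median scaling and 0.011 with the replicate block. With an array left out, NFE2L2 ran from -0.15 to 0.0615 (0.0006 without EEF1D-1357 replicate 3 and 0.0615 without control replicate 2), KEAP1 from -0.23 to 0.036, TXN from -0.13 to 0.25, TXNRD1 from -0.47 to 0.19 and SRXN1 from -0.14 to 0.26 (-0.01 without EEF1D-1893 replicate 1). The cause was not tested. No value was given for GSTM1 when probes were named by RefSeq, nor for GCLC and GPX3 with the filter on all 8 arrays, and the fit of only the groups compared was not run for both shRNAs. Few arrays and probes near background (GCLC, GPX3) limit the precision.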

Other observations

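Other genes of glutathione, thioredoxin, NRF2 and selenoprotein biology numbered 91, of which 78 were tested and 0 called in each contrast. For both shRNAs against control 8 were higher and 7 lower at an unadjusted p under 0.05 (16.9% of all genes in either direction), and the median log2 fold change was -0.07, equal to that of all genes at 2 decimals. UGDH, which makes UDP-glucuronic acid, read 1.62, 1.47 and 1.92 with EEF1D-1357, 1.65, 1.68 and 1.71 with EEF1D-1893, and 0.58 and 0.74 in the controls. Every shRNA array lay above both controls, with a log2 fold change of 1.01 (SE 0.15, unadjusted p = 0.000225, limma adjusted p = 0.123), at 0.93 on slide 1 and 1.10 on slide 2. SELENOP, the selenium carrier, read 2.63, 2.69 and 2.14 with EEF1D-1357, 1.80, 2.05 and 1.55 with EEF1D-1893, and 1.18 and 1.33 in the controls. Its log2 fold change was 0.89 (SE 0.20, adjusted p = 0.153), and the hairpins did not overlap either. TXNRD3, a thioredoxin-glutathione reductase, and GSTT2, a theta-class transferase, were lower on all 6 shRNA arrays than in either control, by log2 fold changes of -0.51 (SE 0.13, adjusted p = 0.158) and -2.07 (SE 0.53, adjusted p = 0.164).

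Of 23 genes that produce peroxide, superoxide or nitric oxide, 15 were tested and 0 called. ERO1A, the endoplasmic reticulum oxidase that makes peroxide while forming disulphides, read 0.15, 0.45 and 0.36 with EEF1D-1357, 0.62, 0.25 and 0.80 with EEF1D-1893, and 0.07 and -0.26 in the controls. All 6 shRNA arrays lay above both controls, with a log2 fold change of 0.53 (SE 0.19, adjusted p = 0.240). In this contrast 1 of the 15 had groups that did not overlap, against 16.8% of all genes. Between the hairpins, 4 of the 15 were higher with EEF1D-1357 at an unadjusted p under 0.05, against 2.59% of all genes, and 0 were lower, against 3.82%. The higher genes were the dual oxidase DUOX1 (log2 fold change 1.02, SE 0.28), its maturation factor DUOXA1 (0.77, SE 0.29), the NADPH oxidase subunit CYBA (0.74, SE 0.25) and the inducible nitric oxide synthase NOS2 (0.99, SE 0.33), each with an adjusted p of 0.747. Whatever the p, 7 of the 15 were higher and 8 lower, and the hairpins overlapped for NOS2. Fitted on the hairpin groups alone, 13.9% of all genes passed this p in either direction, against 6.41% in the main fit. The hairpins lay on different slides, so hairpin and slide cannot be told apart here except through the single control of each slide. DUOX1 read -0.93, -0.45 and -1.44 with EEF1D-1357, -1.99, -2.30 and -1.59 with EEF1D-1893, and -1.93 and -1.87 in the controls. The controls of both slides lay with EEF1D-1893 for DUOX1, and the other genes differed. For CYBA control replicates 1 and 2 read 3.11 and 2.19, above all EEF1D-1357 arrays and among the EEF1D-1893 arrays. For DUOXA1 they read -2.78 and -3.53, among the EEF1D-1357 arrays and below all EEF1D-1893 arrays. For NOS2 they read -1.26 and -1.09, between the means of EEF1D-1357 (-0.71) and EEF1D-1893 (-1.71).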
